A study of Mus musculus with 46 samples.

Results

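The nuclear-encoded subunits of oxidative phosphorylation were described in kidney and liver RNA of wild-type C57BL/6 mice. Members were taken by gene symbol: the Ndufa, Ndufb, Ndufc, Ndufs and Ndufv genes of complex I without the Ndufaf assembly factors, Sdha to Sdhd of complex II, the Uqcr genes of complex III, the Cox4 to Cox8 genes of complex IV, and the Atp5 genes of complex V. This rule found 80 of the 17242 genes of the 12-week table and 88 of the 18531 genes of the 18-month table. All 80 were in both tables, and 8 (Ndufb1, Ndufb4b, Ndufb4c, Ndufs6b, Ndufab1-ps, Atp5pb, Atp5mpl and Atp5md) were not analysed at 12 weeks. The 12-week members comprised 36 of complex I, 4 of complex II, 8 of complex III, 16 of complex IV (Ndufa4 included, as it is now placed in complex IV) and 14 of complex V. Cox7a2l, a supercomplex factor, and Ndufa4l2, a paralog of Ndufa4, were counted apart. At 18 months complex I had 40 members and complex V 17. Ndufab1-ps and Ndufs6b are annotated as pseudogenes. Ndufab1-ps was counted apart, and Ndufs6b stayed in complex I.

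At 8 weeks of age, males underwent castration or a sham operation and females a sham operation; kidney and liver were collected at 12 weeks or at 18 months. No group carried an introduced allele. The 46 libraries formed 12 groups: each sham group held 3 libraries, and the castrated males held 6 per tissue at 12 weeks and 5 per tissue at 18 months. For 19 of the 22 libraries of 18-month mice the title omits the age, which was taken from the description. Each value below is the authors' group mean without a spread, in FPKM (fragments normalised for transcript length and sequencing depth) at 12 weeks and in an expression signal of unnamed unit at 18 months. Levels of different genes are therefore compared at 12 weeks only. The depth per library is unknown, and the number of libraries limits the precision. "Rose" and "fell" are used for members with an adjusted p under 0.05 in the authors' test; these p-values measure only the spread between libraries, since the labels do not say whether each came from a separate animal. The 12-week tables list each gene for 1 comparison only, so counts at 12 weeks are lower bounds. The share called differed widely between these lists. For sex in liver, 47.1% of the listed genes were higher and 52.9% lower. For castrated males against sham females in kidney, these shares were 3.19% and 1.95%. Listing may thus depend on the outcome, and shares of listed genes at 12 weeks are not rates over all genes.

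Oxidative phosphorylation takes place in the inner mitochondrial membrane. Complexes I and II pass electrons from NADH and succinate to ubiquinone, complex III passes them on to cytochrome c, and complex IV reduces oxygen; complexes I, III and IV pump protons, and complex V (ATP synthase) makes ATP as the protons return. The reabsorbing segments of the kidney tubule, above all the proximal tubule and the thick ascending limb, are rich in mitochondria and depend on this pathway. Several complex IV subunits exist as a widespread form and a form known from heart and skeletal muscle, lung, brown fat or testis (Cox4i2, Cox6a2, Cox6b2, Cox7a1, Cox8b). In bulk tissue, fewer cells of a type and less RNA per cell cannot be told apart.

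Promoter sequences are shown for members on which the comparisons below turn: 3 that fell at 12 weeks (Sdhd, Atp5g3, Cox5a), 2 that rose in the 18-month kidney (Atp5h, Uqcrh) and 3 tissue forms of complex IV. Each is the 100 bases before the start site in the RefSeq promoter table of build GRCm38.p6 (mm10), written 5′ to 3′ on the gene's strand. For Atp5g3 and Cox5a this start site lies inside the gene's annotated span. Capitals mark 4 motifs searched on both strands: gcatgcgc (NRF1), ccggaag (ETS factors), aagatggc (YY1) and tcaaggtca (estrogen-related receptors, ERR). None of the 4 contains another.
Sdhd, chr9:50603850-50603949, minus strand: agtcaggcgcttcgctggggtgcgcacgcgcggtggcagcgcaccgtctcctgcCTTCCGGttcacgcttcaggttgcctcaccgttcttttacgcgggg
Atp5g3, chr2:73911327-73911426, minus strand: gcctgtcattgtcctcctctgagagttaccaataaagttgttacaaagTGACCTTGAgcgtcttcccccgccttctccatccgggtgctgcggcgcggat
Cox5a, chr9:57521132-57521231, plus strand: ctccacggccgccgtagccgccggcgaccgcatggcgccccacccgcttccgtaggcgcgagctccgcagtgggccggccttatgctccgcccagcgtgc
Atp5h, chr11:115419920-115420019, minus strand: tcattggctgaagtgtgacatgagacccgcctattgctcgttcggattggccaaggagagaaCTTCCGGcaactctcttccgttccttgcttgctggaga
Uqcrh, chr4:116075071-116075170, minus strand: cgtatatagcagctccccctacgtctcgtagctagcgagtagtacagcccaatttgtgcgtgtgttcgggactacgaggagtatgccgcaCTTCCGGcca
Cox6b2, chr7:4753095-4753194, minus strand: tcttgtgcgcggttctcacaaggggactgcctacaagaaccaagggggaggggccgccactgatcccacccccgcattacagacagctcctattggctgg
Cox7a1, chr7:30184071-30184170, plus strand: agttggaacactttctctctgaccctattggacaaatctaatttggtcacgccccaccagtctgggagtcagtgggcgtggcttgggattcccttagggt
Cox8b, chr7:140900447-140900546, minus strand: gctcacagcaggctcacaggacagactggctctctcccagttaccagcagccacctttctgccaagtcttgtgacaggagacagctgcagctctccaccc
The capitals in Sdhd, Atp5h and Uqcrh are the ETS letters read on the reverse strand, and those in Atp5g3 are the ERR letters read on the reverse strand. Cox5a, Cox6b2, Cox7a1 and Cox8b held none of the 4 motifs in these bases.

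Over windows of 250 bases before to 50 bases after the start site, 70 members had an entry. The NRF1 letters were in 10 of them (14.3%, against 2.71% of all 32851 windows), the ETS letters in 17 (24.3%, against 8.86%), the YY1 letters in 10 (14.3%, against 2.75%) and the ERR letters in 2 (2.86%, against 0.423%). Some members had 2 windows. A member was counted once if any of its windows matched, while the share over all windows is per window. The 2 members with the ERR letters were Atp5g3, with its first base at position -52 from the start site, and Sdhd, at position 37, beyond the bases shown. Both fell in the 12-week kidney after castration and were lower in 12-week female than male liver, as given below. Among all members with a window, 14 fell in that kidney comparison and 7 were lower in that liver comparison. With only 2 genes, a link between these letters and the calls was not tested. Of the 14 members with a window that fell in the 12-week kidney after castration, 0 held the NRF1 letters, 2 the ETS letters and 2 the YY1 letters. Of the 11 with a window that rose in the 18-month kidney after castration, 2 (Atp5h and Uqcrh) held the ETS letters and none the other 3. A match describes these letters only and was not tested as a binding site.

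In the kidney of 12-week sham males, the most abundant member was Atp5b, the catalytic beta subunit of ATP synthase, with a mean of 2708 FPKM. Cox4i1, the widespread form of the core-binding subunit 4 of complex IV, followed with 1624 FPKM, and Cox6b1 with 1612. The medians by complex were 241 FPKM for complex I, 295 for complex II, 553 for complex III, 648 for complex IV and 607 for complex V. Within complex I the means ran from 25.7 (Ndufa11) to 712 FPKM (Ndufa3), and 34 of its 36 members reached 100 FPKM. Complex II ran only from 148.5 (Sdhd, a membrane anchor) to 329.6 FPKM (Sdhb, the iron-sulfur subunit). Complex IV had the widest range, from 0.122 FPKM for Cox8b to Cox4i1, with the tissue forms far below the widespread ones. Cox6a2 and Cox4i2 were near 1 FPKM there and Ndufa4l2 at 3.1. Together the members made up 8.32% of the summed FPKM of the kidney table in sham males and 3.61% in liver.

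Nearly all members were more abundant in kidney than in liver. In 12-week sham males 79 of 80 had the higher mean in kidney, with a median ratio of 1.68, but 14 of 80 reached 2-fold on mean + 1, against 22.9% of all expressed genes. Most genes shared the direction, with 71.0% of all expressed genes higher in kidney. The exception was Uqcrq, a small complex III subunit, with 850.0 FPKM in kidney and 1232 in liver; it was also higher in liver in the other 5 pairs of groups. Atp5b was 2.45-fold and Ndufb4, an accessory complex I subunit, 2.73-fold higher in kidney. The largest ratios belonged to tissue forms: Cox7a1 had 43.4 FPKM in kidney and 10.7 in liver, and Cox6b2 10.8 and 1.23. At 18 months 83 of 86 expressed members were higher in kidney and 23 reached 2-fold, against 34.8% of all genes. These differences between tissues have no test, because only group means were used.

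**Figure D1:**
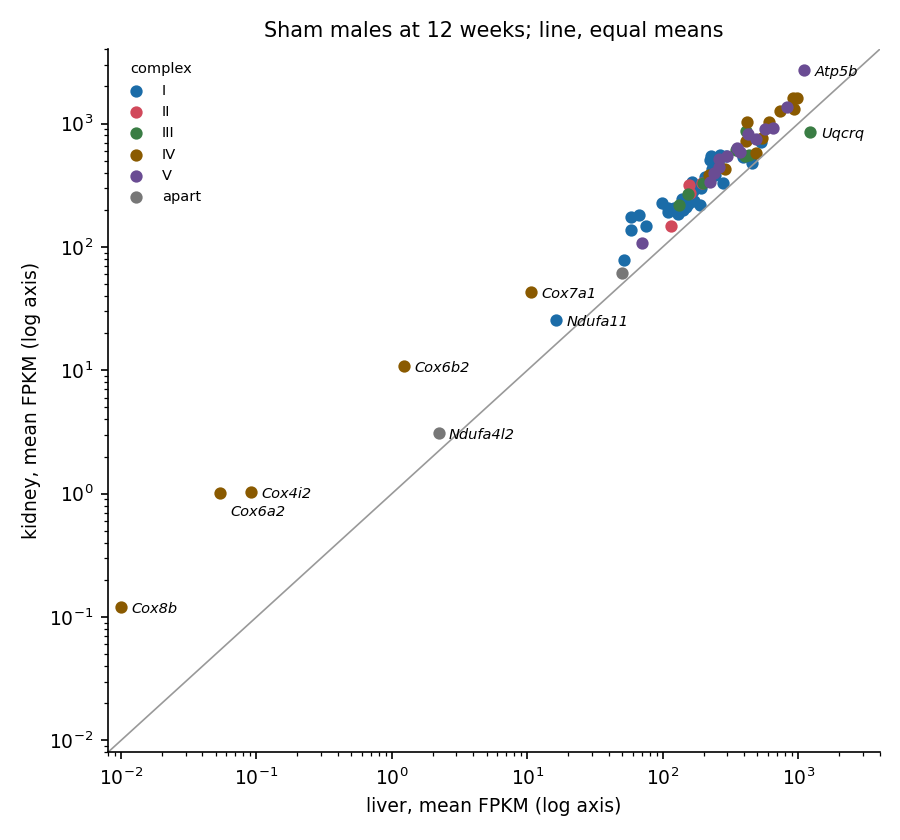
Mean FPKM of each of the 80 members in liver (horizontal) and kidney (vertical) of 12-week sham males, both on log axes, coloured by complex. All points but Uqcrq lie above the line of equal means; Cox8b, Cox6a2 and Cox4i2 are the 3 lowest in kidney, and Ndufa4l2, Cox6b2, Ndufa11 and Cox7a1 lie between them and the rest.

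Castration was followed by lower RNA of many subunits in the 12-week kidney. Of 25 members listed for this comparison 18 fell (72.0%, against 26.0% of the 5598 genes listed for it) and 3 rose (12.0%, against 22.6%). Over all 80 members, tested or not, 57 had the lower mean in castrated males, against 5757 of 11915 expressed genes. The median difference was -0.17 in log2(mean + 1), against 0.02 over all expressed genes. With the groups rescaled to equal totals without the 100 most abundant genes, the median was 0.00 and that of all genes 0.17, so the members stay below the genes in general while their own direction is lost. The summed FPKM of the members was 38266 for the sham males, 32952 after castration and 32050.4 for the females. By this sum the castrated males stood near the females. As a share of all summed FPKM of each group, the members made up 8.32%, 8.17% and 7.50% in the same order. By this share the castrated males stood nearer the sham males. Of the 42 members listed for castrated males against sham females, 1 fell (Cox8b, 2.38%, against 1.95% of the listed genes) and 0 rose (against 3.19%) by the authors' test. Of these 42, 1 had an unadjusted p under 0.05, against 611 of the 8444 listed genes.

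**Figure D2:**
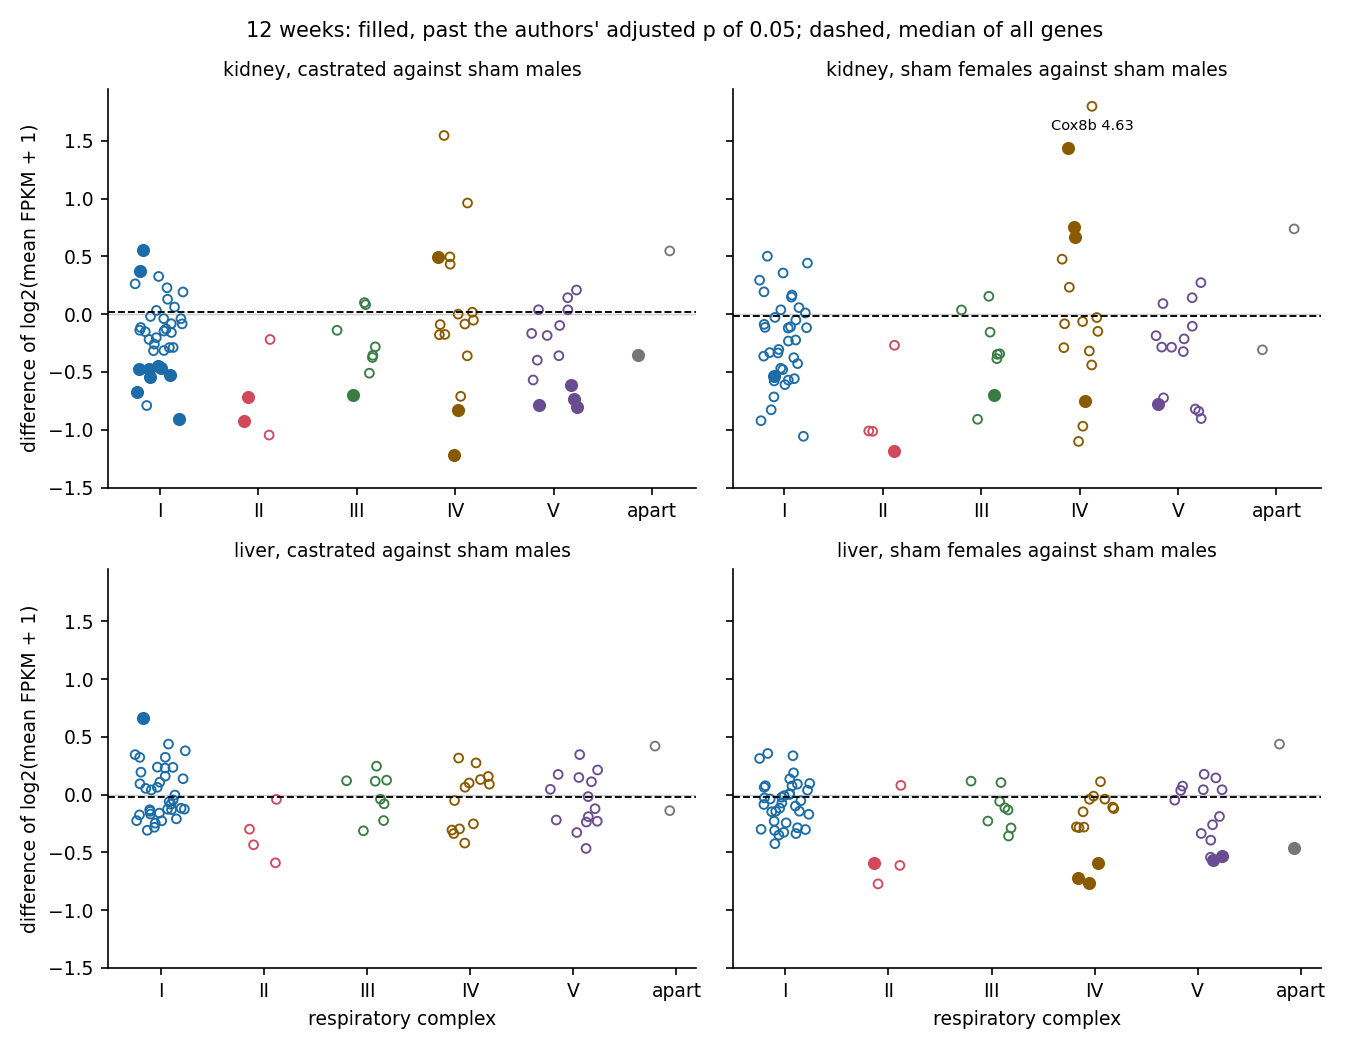
Difference of log2(mean FPKM + 1) of each expressed member at 12 weeks by complex, in kidney (top) and liver (bottom), for castrated against sham males (left) and sham females against sham males (right); filled points are past the authors' adjusted p of 0.05, open points are not or were listed for another comparison, and the dashed line is the median of all genes. All 4 complex II points lie below 0 in kidney, and Cox8b (4.63) is drawn at the upper edge of its panel.

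All 4 subunits of complex II, which is also succinate dehydrogenase of the citrate cycle, had lower means in the castrated male kidney, with a median difference of -0.82. Sdha, the flavoprotein that oxidises succinate, had 271, 165 and 134 FPKM in sham males, castrated males and sham females, the order used for all values below. It fell 1.65-fold on castration (adjusted p = 0.0265). Sdhd had 148.5, 77.9 and 73.2 FPKM and fell 1.91-fold (adjusted p = 0.000476, the smallest value in the kidney table, shared by 7 members for castration). Sdhc, the other membrane anchor, had 319, 154 and 139.5 FPKM and was listed for the sex comparison, in which it was 2.29-fold lower in females (adjusted p = 0.00561). Sdhb differed least, with 329.6, 283 and 273 FPKM. In 3 of the 4 the castrated males and the females were both far below the sham males.

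In complex IV the 16 members had a median difference of only -0.07, but included the largest differences in both directions (Cox5a and Cox6b2). Cox5a, which with Cox5b binds the catalytic core, had 426, 182 and 198 FPKM and fell 2.34-fold after castration, the largest fall among the members tested (adjusted p = 0.000476). Cox5b went the other way, with 724, 1021 and 1007 FPKM and a rise of 1.41-fold (adjusted p = 0.0311). Ndufa4 had 1315, 741 and 671 FPKM and fell 1.77-fold (adjusted p = 0.000476). Cox4i1, Cox6b1, Cox6c and Cox7b stayed within 1.11-fold across the 3 groups, Cox4i1 with 1624, 1644 and 1592 FPKM and Cox6c with 1266, 1267 and 1212; none of the 4 was listed for castration.

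Complex V had a median difference of -0.27, and its 4 falls lay in the catalytic head, the central stalk and the c ring. Atp5b had 2708, 1566 and 1639 FPKM and fell 1.73-fold (adjusted p = 0.0174). Atp5a1, the alpha subunit, had 819.7, 491 and 457 FPKM and fell 1.67-fold. Atp5c1, the gamma subunit of the central stalk, had 519, 339.7 and 293 FPKM and fell 1.53-fold. The median of the 5 head and stalk genes was -0.61, against -0.06 for the 6 other subunits outside the c ring. Atp5g1, Atp5g2 and Atp5g3 are separate genes that encode the same mature c-ring protein. Atp5g3, the most abundant of them, had 1374, 785 and 734 FPKM and fell 1.75-fold (adjusted p = 0.000476). Atp5g1 had 334, 313 and 288 and Atp5g2 108, 84.3 and 86.4 FPKM, and neither was called; reads of these 3 genes may be shared with processed copies, so their split is uncertain. Atp5e, Atp5h, Atp5j and Atp5o, small subunits of the stalks, had means in castrated males above those in sham males and were not listed for castration.

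Complex I had a median difference of -0.15, with 8 members that fell and 2 that rose among 11 listed. Ndufc2, an accessory subunit of the membrane arm, fell most, 1.87-fold from 369.7 to 197 FPKM, with 177 in females. Ndufa1, Ndufa9, Ndufb6, Ndufb9, Ndufs4 and Ndufs5 fell between 1.38-fold and 1.60-fold. Ndufa5, an accessory subunit of the peripheral arm, had 556, 816 and 788 FPKM and rose 1.47-fold (adjusted p = 0.00448). Ndufs7, which carries the last iron-sulfur cluster before ubiquinone, had 204, 266 and 234 FPKM and rose 1.30-fold (adjusted p = 0.0358). The 7 conserved core subunits and the 29 accessory subunits had like medians, -0.15 and -0.15. In complex III, with a median of -0.32, Uqcrc2, a core protein, had 220.1, 135 and 117 FPKM and fell 1.63-fold. Cox7a2l fell 1.29-fold (adjusted p = 0.0379) from 62 FPKM.

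The female kidney also had less RNA of many subunits than the male kidney at 12 weeks, in a comparison that uses the same sham male libraries. Of 13 members listed, 5 were lower in females past the threshold (38.5%, against 39.7% of the 3200 genes listed) and 3 were higher (23.1%, against 41.8%), so the share of lower members is near the background. The median difference over all 80 members was -0.28, against -0.01 over all genes, and 58 of 80 were lower in females, against 6040 of 11915 expressed genes. After the same rescaling these medians were -0.05 and 0.18. The lower members were Sdhc, Uqcrfs1 (the Rieske iron-sulfur protein of complex III), Cox7a2, Atp5l (the g subunit of ATP synthase) and Ndufb3. Uqcrfs1 had 332, 233 and 204 FPKM and was 1.63-fold lower in females, and Atp5l had 629, 424 and 367 and was 1.71-fold lower. The 3 higher members were tissue forms of complex IV (Cox6b2, Cox7a1 and Cox4i2), described below.

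In the 12-week liver the members differed less. For castration, 1 of 19 listed members rose (Ndufa5, 5.26%, against 12.1% of the listed genes) and 0 fell (against 12.8%) by the authors' test. Of the 19, 4 had an unadjusted p under 0.05, against 2540 of the 8479 listed genes. Ndufa5 had 264, 420.5 and 339 FPKM and rose 1.59-fold (adjusted p = 0.00157), so that it rose in both tissues. The median difference of the 77 expressed members was -0.04, against -0.02 over all expressed genes, and that of complex II -0.37. All 7 members listed for sex were lower in females (against 52.9% lower and 47.1% higher of the 628 listed genes, every one of which was called). These were Cox5a, Ndufa4, Cox7a2, Sdhd, Atp5l, Atp5g3 and Cox7a2l. Cox5a had 288, 215 and 169 FPKM and was 1.70-fold lower in females (adjusted p = 0.000856), and Ndufa4 had 937, 742 and 568 and was 1.65-fold lower (adjusted p = 0.00157). The means of castrated males lay between the other 2 groups for each of these 7. As the 7 were picked by their difference between those 2 groups, such an order is favoured and describes these means only. For castrated males against sham females 1 of 54 members rose (1.85%, against 1.77% of listed genes) and 0 fell (against 2.94%) by the authors' test. The 1 was Uqcrh (1.33-fold, adjusted p = 0.0471). Of the 54, 2 had an unadjusted p under 0.05, against 556 of the 8135 listed genes. The mean was higher in castrated males for 63 of 77 expressed members, against 51.0% of all expressed genes. The median was 0.12, against 0.004 over all expressed genes.

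At 18 months all 88 members were tested in each kidney comparison, and castration was followed by more rises than falls. Of 88 members 13 rose (14.8%, against 9.56% of all genes tested) and 4 fell (4.55%, against 13.1%). The ratio of the deposited means exceeded the authors' log2 fold by a median of 0.15 over all genes in this comparison, so both scales are given. By the authors' fold the median member stood at 0.09 (all genes -0.01), and by the means at 0.23 (all genes 0.13). Relative to all genes the shift of the members was thus about 0.10 log2 on either scale.

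**Figure D3:**
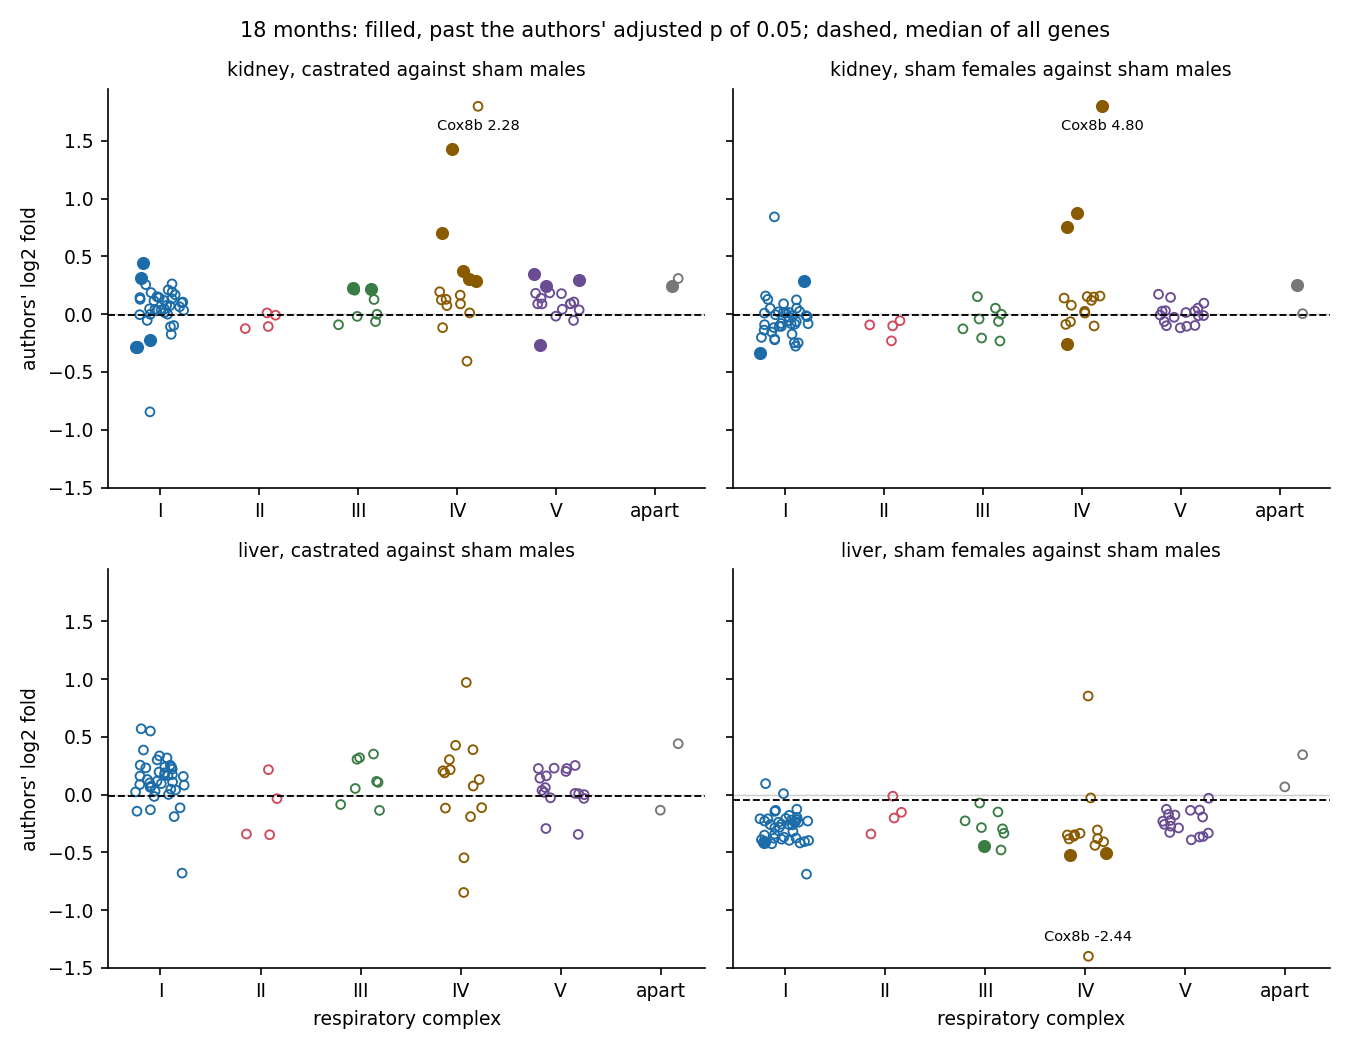
Authors' log2 fold of each expressed member at 18 months by complex, laid out as for 12 weeks; filled points are past the authors' adjusted p of 0.05 and the dashed line is the median of all genes. The kidney after castration (upper left) has 13 filled points above 0 and 4 below, some of them overlapping, and Cox8b lies beyond the axis in 3 panels and is drawn at the edge with its value.

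The members that rose in the 18-month kidney after castration came from complexes I, III, IV and V and none from complex II. In complex I, Ndufa5 had deposited means of 321, 478 and 379.6 and rose 1.36-fold by the authors' fold (log2 0.45, implied standard error 0.10, adjusted p = 8.86e-05). Ndufa7 rose 1.24-fold. Uqcrb and Uqcrh of complex III, the second of which is the hinge protein at the cytochrome c1 site, rose 1.17-fold each. In complex IV, Cox6c had means of 1599.8, 2271 and 1922 and rose 1.30-fold (log2 0.38, implied standard error 0.11, adjusted p = 0.00421), and Cox5b and Cox7b rose 1.22-fold and 1.24-fold. In complex V, Atp5h (the d subunit of the peripheral stalk) had 779.7, 1090.4 and 952 and rose 1.28-fold (adjusted p = 2.66e-05), with Atp5g1 and Atp5o at 1.23-fold and 1.18-fold. Cox7a2l rose 1.18-fold (adjusted p = 0.000885), where it had fallen at 12 weeks.

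The 4 falls included the ATP synthase beta subunit and 2 core subunits of complex I. Atp5b had means of 1912, 1761 and 2004 and fell 1.20-fold by the authors' fold (log2 -0.27, implied standard error 0.07, adjusted p = 0.002). Ndufs1, the large iron-sulfur subunit, fell 1.22-fold and Ndufv1, the NADH-binding subunit, 1.17-fold (adjusted p = 0.0112 and 0.037). Ndufb4c fell 1.22-fold; its name marks it as a paralog of Ndufb4, which was not called, and the split of reads between them is uncertain. The median of complex II was -0.06 by the authors' fold, and Sdha, Sdhb, Sdhc and Sdhd had adjusted p values from 0.289 to 0.959.

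Sham females against sham males in the 18-month kidney gave 5 higher members (5.68%, against 7.91% of genes) and 2 lower (2.27%, against 8.90%). The higher ones were Cox8b, Cox6b2, Cox7a1, Cox7a2l and Ndufb8, and the lower ones Ndufa4 and Ndufb4c. Ndufb8, a membrane-arm subunit, had means of 643, 727 and 839.8 and was 1.22-fold higher in females (adjusted p = 0.0492). Ndufa4 had 2082, 2101 and 1883 and was 1.19-fold lower (adjusted p = 0.0189). The median member stood at -0.01, against -0.01 for all genes. For castrated males against sham females, Cox8b fell (1.14%, against 4.41%) and 0 members rose (against 2.73%) by the authors' DESeq2 test, with 17 of 88 at an unadjusted p under 0.05, near the 3238 of 17889 over all genes. Of 85 expressed members 75 had the higher mean in castrated males, against 53.5% of all genes.

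In the 18-month liver 0 members rose (against 1.08%) and 0 fell (against 1.01%) after castration by the authors' DESeq2 test, and 2 of 88 had an unadjusted p under 0.05 (1492 of 16883 over all genes). Females against males gave 0 higher members (against 5.87%) and 4 lower (4.65% of 86 tested, against 3.91%). Cox7a2 had means of 249, 251 and 201 and was 1.43-fold lower in females (log2 -0.52, implied standard error 0.18, adjusted p = 0.0378). Ndufa4 had 1325, 1317 and 1085 and was 1.42-fold lower (adjusted p = 0.0234), Uqcrq 167, 235 and 142 and 1.36-fold, and Ndufa1 202, 234 and 177 and 1.33-fold. Of the 86 members 30 had an unadjusted p under 0.05 (3519 of 16659 over all genes), and the median authors' log2 fold was -0.27, against -0.05 for all genes; by the means these medians were -0.05 and 0.14. For castrated males against sham females the median had the opposite sign, 0.41 against 0.03, while 0 rose (against 0.530%) and 0 fell (against 0.595%) and 21 of 88 had an unadjusted p under 0.05 (1679 of 16971 over all genes). Both comparisons use the same female libraries.

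Among the tissue forms of complex IV, Cox8b and Cox6b2 had the widest differences between the kidney groups, while Cox6a2 hardly differed at 18 months. Cox8b had 0.122, 1.19 and 26.7 FPKM at 12 weeks, in the order given above, and 1.09, 5.51 and 31.7 at 18 months. The females stood far above both male groups at both ages. Cox8b was 22.5-fold lower in castrated males than in females at 12 weeks (adjusted p = 0.000476) and, by the authors' fold, 5.72-fold lower at 18 months (adjusted p = 7.7e-06). Females exceeded sham males by log2 4.80 at 18 months (implied standard error 0.84, adjusted p = 2.72e-07). After castration the 18-month value was log2 2.28 with an adjusted p of 0.0824, above the threshold, and at 12 weeks this comparison was not listed.

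Cox6b2 and Cox7a1 differed in another way, with the mean of castrated males closer to that of females than to that of sham males. At 18 months the castrated males exceeded the females in Cox6b2, without a call. Cox6b2, known from testis, had 10.8, 33.5 and 31 FPKM at 12 weeks and was 2.86-fold higher in females than in sham males (adjusted p = 0.000476). Its 18-month means were 11.6, 32.6 and 22.5, and it rose on castration by log2 1.43 (implied standard error 0.26, adjusted p = 6.56e-07). Cox7a1, the heart and muscle form of subunit 7a, had 43.4, 58.9 and 69.7 FPKM at 12 weeks, and was 1.61-fold higher in females (adjusted p = 0.00417). At 18 months it had 62, 109.8 and 112 and rose 1.63-fold on castration (adjusted p = 0.000471). Its widespread partner Cox7a2 had 379.9, 232 and 226 FPKM at 12 weeks and was 1.68-fold lower in females (adjusted p = 0.00089). Cox7a1 therefore made up 10.3% of the summed FPKM of the pair in sham male kidney, 20.3% in castrated males and 23.6% in females. At 18 months the ratio of Cox7a1 to Cox7a2 was 1.48 times that of sham males in castrated males and 1.76 times in females.

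The other pairs stayed with the widespread form. Cox6b2 was 0.666%, 2.11% and 2.08% of its pair with Cox6b1 in the 12-week kidney, and Cox8b reached 3.43% of its pair with Cox8a in females. Cox4i2, the lung form of subunit 4, had 1.04, 1.87 and 2.45 FPKM and was 2.36-fold higher in females (adjusted p = 0.0172), at no more than 0.153% of its pair with Cox4i1. Its 18-month kidney means were 1.77, 1.47 and 2.10, lowest in castrated males, and it was not called there. Ndufa4l2 had 3.1, 5 and 5.85 FPKM and was listed as called in none of the comparisons. At 12 weeks the vascular markers given at the end moved in the same direction as Cox4i2 and Ndufa4l2, and their part was not tested. In the 18-month kidney these markers summed to 62.1, 86.9 and 70.6 in sham males, castrated males and females. Ndufa4l2 had means of 4.78, 6.56 and 5.25 there, in the same order as the markers. Cox4i2, at low means, was lower in castrated than in sham males. Cox6a2 was at or below 1.36 FPKM in every kidney group at 12 weeks and had an 18-month mean of 0.58 in each of the 3. In liver, Cox8b and Cox6b2 did not exceed 1.23 in any group at either age, and Cox7a1 had 10.7, 13.6 and 9.58 FPKM at 12 weeks and 8.15, 17.3 and 9.62 at 18 months. The 18-month difference after castration (authors' log2 fold 0.97, implied standard error 0.44) was not called (adjusted p = 0.448), although it was the widest of any expressed member in that comparison by the means. Adipose markers, brown fat included, summed to between 0.143 and 0.994 FPKM in the 12-week kidney and skeletal muscle markers to between 3.50 and 6.67. Ucp1, which defines brown fat, was at 0.01 FPKM in sham male kidney at 12 weeks, the smallest value in the table, and at 0.0591 and 0.0358 in castrated males and females.

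**Figure D4:**
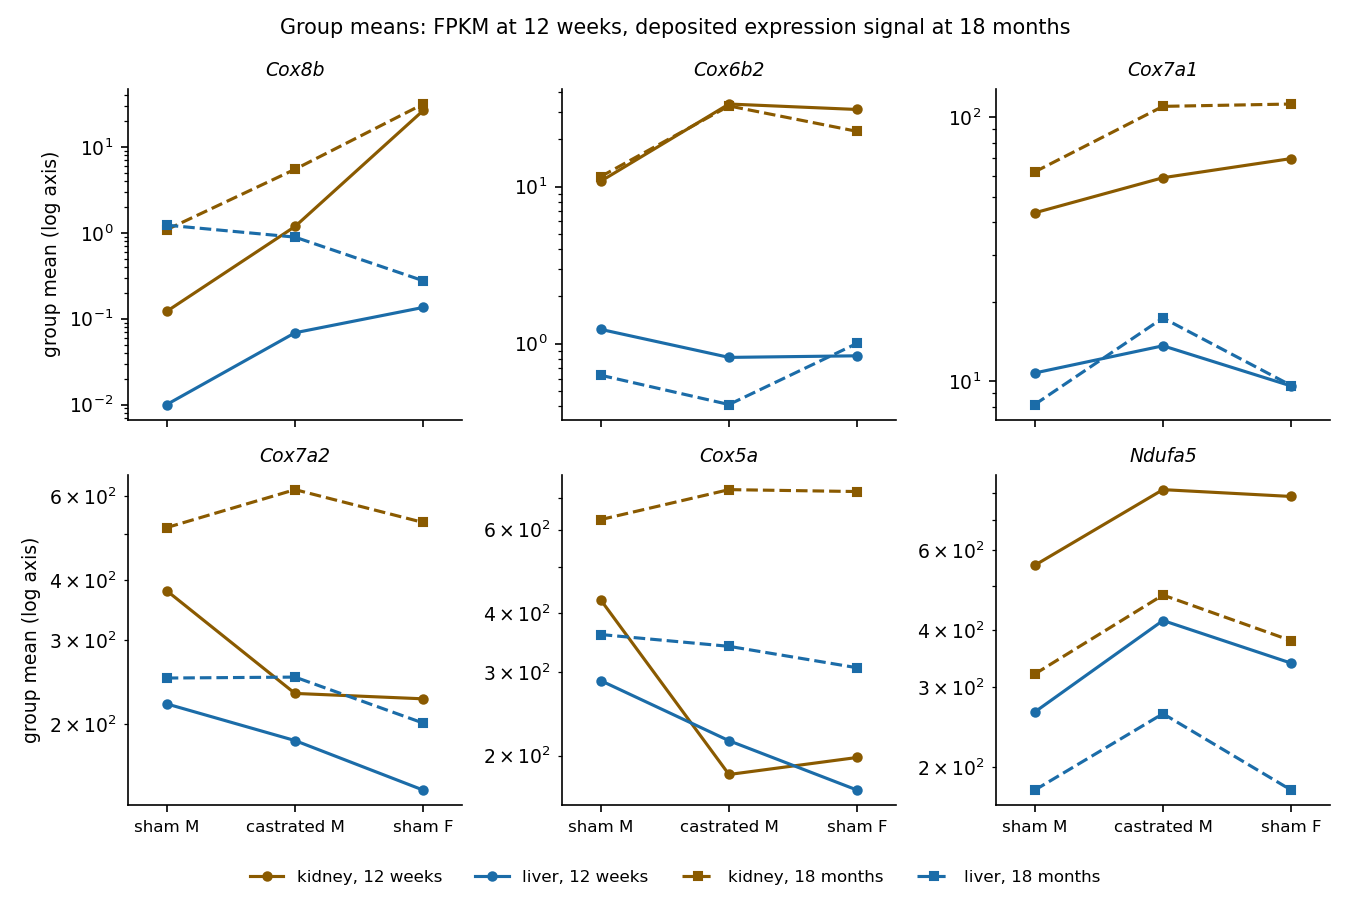
Group means (log axes, each panel with its own range) of 6 members in sham males, castrated males and sham females, for kidney and liver at 12 weeks (FPKM, solid) and 18 months (deposited signal, dashed); lines join groups for reading only. Kidney Cox8b is highest in females, kidney Cox6b2 and Cox7a1 are higher in castrated males and females than in sham males, and kidney Cox7a2 and Cox5a are lower in both at 12 weeks.

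Of the 80 members at 12 weeks 49 passed the threshold in none of the comparisons for which they were listed, and of the 88 at 18 months 65 passed it in none of the 6. Directions after castration were partly shared between the ages in kidney. Of the 3 members that rose at 12 weeks, 2 (Ndufa5 and Cox5b) rose again at 18 months, and all 3 had a positive authors' fold. Of the 18 that fell at 12 weeks, 1 (Atp5b) fell and 1 (Cox7a2l) rose at 18 months, while 8 had a positive and 10 a negative fold. Across the 79 members expressed at both ages, Pearson's r between the 2 differences was 0.66 (Spearman's rho 0.61), against 0.63 (0.60) across all 11570 genes. Without Cox6b2, Cox7a1 and Cox8b the r was 0.47 over 76 members. Genes are not independent replicates, and the members share libraries and scaling within each age. The median member stood at -0.17 at 12 weeks and, by the authors' fold, at 0.09 at 18 months; the difference between ages was not tested, since the 2 tables were normalised separately.

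**Figure D5:**
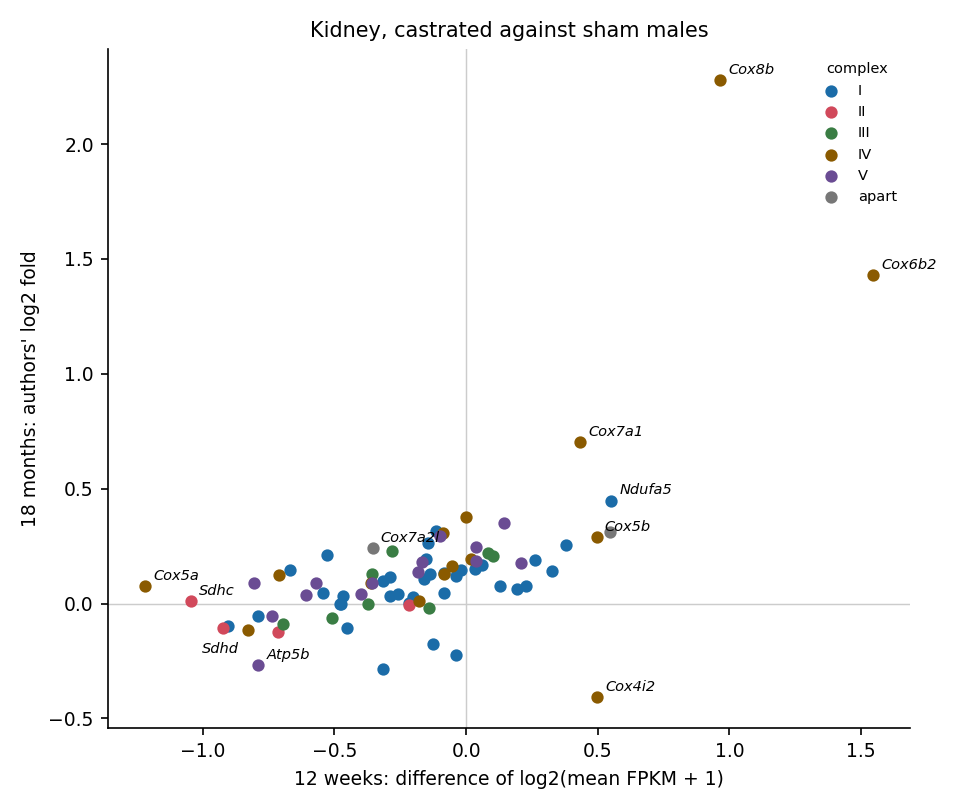
Members expressed in kidney at both ages: difference of log2(mean FPKM + 1) between castrated and sham males at 12 weeks (horizontal) against the authors' log2 fold at 18 months (vertical), coloured by complex. Most points lie left of 0 at 12 weeks and close to 0 at 18 months, and Cox6b2, Cox8b, Cox7a1 and Ndufa5 are high at both ages.

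The labels do not say whether kidney and liver came from the same mice. At 12 weeks, across 77 members, the castration differences of the 2 tissues had an r of 0.66 (rho 0.75), against 0.43 (0.58) across 10084 genes; at 18 months the r was 0.12 (rho 0.45) over 83 members, against 0.30 (0.40) over 10817 genes. Coding length went with the order: the difference between castrated and sham males tended to be higher in short than in long members. This is an order among members only, since 57 of 80 had the lower mean after castration in the 12-week kidney. Pearson's r with log2 coding length was -0.31 in the 12-week kidney, where it was 0.18 across all genes, and -0.41 in the 18-month kidney, where it was -0.08. In the 18-month liver it was -0.41 for castration and -0.46 for castrated males against sham females, with -0.06 across all genes in each. In the 12-week liver it was -0.31 for castration. For castrated males against sham females it was 0.20 in the 12-week kidney, -0.06 in the 18-month kidney and -0.29 in the 12-week liver. For sex it ran from -0.31 in the 12-week kidney to 0.10 in the 18-month liver. These correlations describe 77 to 80 members of the same libraries. The part of transcript length in the calls was not tested.

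Other genes of mitochondrial respiration also fell in the 12-week kidney after castration. The counts below stand beside 26.0% that fell and 22.6% that rose among all 5598 genes listed for this comparison. Cycs, which encodes cytochrome c, had means of 286 and 81.1 FPKM in sham and castrated males, a 3.53-fold difference that was not listed for this comparison. It was 3.84-fold lower in females than in sham males (adjusted p = 0.000476). In liver it fell on castration 1.67-fold (adjusted p = 0.000856) and in the 18-month kidney its ratio of means was 1.30-fold lower (adjusted p = 8.2e-14). Cyc1, the cytochrome c1 of complex III, fell 1.53-fold. Of 14 complex I assembly factors measured, 5 of 7 listed fell, led by Acad9 (2.43-fold). Of 35 assembly factors of the other complexes, 8 of 11 listed fell, led by Uqcc1 (1.97-fold), and none of either list rose. All 9 listed genes of 18 in the citrate cycle and pyruvate dehydrogenase list fell, among them Dlat (1.99-fold). All 7 listed of 17 import genes fell, led by Timm23 (3.17-fold), and of 77 mitochondrial ribosomal proteins 26 of 32 listed fell and 1 (Mrpl52) rose. Of 9 transport genes, 5 of 6 listed fell, among them the ADP/ATP carrier Slc25a5 (1.72-fold). Of the 5 listed electron carrier and ubiquinone genes of 15, all fell, led by Etfdh (2.46-fold). Among 16 regulators of mitochondrial biogenesis, 3 of 6 listed fell (Tfam 1.92-fold, Esrrg 1.46-fold and Yy1 1.32-fold). The list medians lay between -0.32 and -0.63 except for the regulators, at 0.12, against 0.02 over all expressed genes. The 13 subunits encoded by mitochondrial DNA were not analysed here.

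In the 18-month kidney after castration, falls outnumbered rises in most of these lists, as over all genes, of which 13.1% fell and 9.56% rose. Of 18 citrate cycle genes 7 fell and 0 rose, of 15 complex I assembly factors 4 fell, and of 78 mitochondrial ribosomal proteins 8 fell and 3 (Mrpl23, Mrps25 and Mrps6) rose. Among transport genes 3 rose (Ucp2, Ckmt1 and Slc25a4) and 1 fell (Vdac1), with Slc25a4 at 1.45-fold in means (adjusted p = 0.000775). Of the regulators, Perm1 and Ppargc1a rose; Ppargc1a, a coactivator of mitochondrial genes, was 1.41-fold higher in means (adjusted p = 0.00155). In the 18-month liver after castration, 1 gene was called across all of these lists, the transporter Ucp2, which was 2.32-fold higher in means.

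Markers of other cell types moved with some of these results. After castration 22.6% of the genes listed rose and 26.0% fell in the 12-week kidney. In the 18-month kidney 9.56% of genes tested rose and 13.1% fell. In the 12-week kidney the summed FPKM of 6 vascular smooth muscle and pericyte markers was 39.7, 74.3 and 86.4 in sham males, castrated males and sham females. Of the 6, 4 were listed for castration and all 4 rose. The sum of 8 proximal tubule markers was 2599, 2414 and 1972, and both of the 2 listed fell. That of 9 thick ascending limb and distal markers was 1190.4, 1089 and 1131, and of 4 listed 2 rose and 2 fell. In the 18-month kidney, 7 of 9 thick ascending limb and distal markers rose after castration (summed means 1849, 2791 and 4057), and of 8 proximal tubule markers 1 rose and 4 fell (4281, 3673 and 2998). Slc34a1 dominated the proximal tubule sum, with 2692, 2196 and 1536. For females against sham males, 3 of these 8 were lower past the threshold. Lrp2, Cubn, Slc5a12 and Aqp1 had the higher mean in females, and the median difference was 0.04. Blood markers in the 18-month kidney summed to 3460.3 and 5246 in sham and castrated males, and 3 of 5 rose after castration. In liver, immune markers summed to 22.5 in sham males and 54.7 in sham females at 12 weeks (1 of 6 listed, and higher) and to 50.5 and 258 at 18 months (3 of 6 higher). For this comparison 47.1% of the genes listed at 12 weeks were higher in females. At 18 months 5.87% of genes tested were higher and 3.91% lower. Vascular markers in the 18-month liver summed to 9.77 and 19.3 (3 of 6 higher) and adipose markers to 50.2 and 0.27 (2 of 6 lower). Cidea (26.0) and Cfd (24.1) made up nearly all of that adipose sum in sham males. Adipoq, Plin1 and Lep were at 0.01, the smallest value, in both sham groups, so the sum does not show adipose cells. The kidney marker lists summed to between 0.141 and 52.1 in all liver groups, and hepatocyte markers to between 114 and 367 in kidney and at least 58536 in liver. The part of cell composition in the members' differences was not tested.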

How the data were processed

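Poly(A)-enriched RNA of 46 libraries was sequenced as paired ends. HISAT2, SAMtools, Cufflinks and build mm10 are named in the submitters' processing notes; the sources used here give neither versions nor roles. The authors deposited group means without replicate values: FPKM at 12 weeks, with 0.01 as the smallest value, and an expression signal of unnamed unit at 18 months. The authors' p-value and adjusted p-value were deposited for 1 comparison per gene and tissue at 12 weeks, and for all 3 comparisons with a log2 fold at 18 months, from DESeq2 per the file headers. At 12 weeks direction was taken from the means. Tests per library had been planned; as only means were used, the authors' tests replaced them, and depth per library is unknown.

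Differences of log2(mean + 1) were computed for genes that reached a mean of 1 in some group, with Python 3.11.15, numpy 2.4.6, pandas 2.3.3, scipy 1.17.1 and matplotlib 3.10.9, and were tested on simulated data. The implied standard error, added after seeing the data, divides the authors' log2 fold by the normal quantile that matches its p-value. Medians were also taken with a pseudocount of 0.1, without the filter, centred on all genes and rescaled; counts were also taken at an adjusted p of 0.01, past 1.25-fold, above a mean of 5 and past 2-fold. Members named are the 5 largest rises and falls called in each comparison, the 3 highest and lowest means, complex II, the tissue forms and up to 2 genes per direction of each pathway list; others were named after their values were seen. Members and lists were chosen with earlier results of these data known. Sequences come from the RefSeq promoter table of GRCm38.p6. Some genes are not reported here by name. Metabolite tables were not used here.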

Additional observations from a re-analysis of the deposited data

How the results depend on the processing

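No paired analysis was possible because the files used hold group means whose columns carry no replicate numbers; leaving out each library and the fit with a replicate block were not run for the same reason. Counts of called members were within 1.5 times of those reported in 7 of 12 comparisons at an adjusted p of 0.01, in 11 of 12 with the smaller fold limit on the ratio of mean + 1 and in 12 of 12 above a mean of 5. At an adjusted p of 0.01 the 12-week counts went from 21 to 13 for kidney castration and from 1 to 0 for castrated males against sham females in liver; at 18 months they went from 17 to 11 for kidney castration, from 7 to 2 for kidney sex and from 4 to 0 for liver sex. With the smaller fold limit, set on the ratio of mean + 1, the 18-month liver sex count was also 0, although by the authors' fold these 4 members were at least 1.33-fold lower. A 2-fold limit on the same ratio without a test left 3 members for 12-week kidney castration, 0 for each of the 3 liver comparisons at 12 weeks, 2 and 1 for 18-month kidney castration and sex, and 1 and 0 for 18-month liver castration and sex. Of 68 single calls, 27 were lost at an adjusted p of 0.01, and the direction of all 68 held under centring and rescaling.

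No median moved by over 0.1 with a pseudocount of 0.1 or without the filter on low values. Rescaled without the 100 highest genes, the median difference was 0.004 for 12-week kidney castration, -0.0523 for 12-week kidney sex and 0.10 for 18-month liver castration. Centred on all genes, it was 0.10 and -0.0083 for 18-month kidney castration and sex and 0.12 and -0.19 for 18-month liver castration and sex. By the authors' log2 fold these 4 were 0.0915, -0.0122, 0.11 and -0.27. Kidney against liver in sham males went from 0.74 to 0.36 at 12 weeks and from 0.87 to 0.13 at 18 months when centred. The sign changed for 1 of 12 medians of all members on centring, 3 of 12 on rescaling and 1 of 6 with the authors' fold; the cause was not tested. With unknown depth and 3 to 6 libraries per group, differences that missed the threshold do not show equal levels.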
